A study of Mus musculus with 10 samples.

Results

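Msln, Fetub, Pxylp1 and Dpp4 are 4 genes whose signals were much higher in medullary thymic epithelial cells (mTECs) lacking the transcription factor Fezf2 than in wild-type cells. They were chosen by the size of that difference, as large rises outside other gene families described in these data, so it is given below as a description without a test. The rule sets no threshold. The 4 genes stand among 18194 genes that had probe sets with a single symbol on the array, and their 9 probe sets among 34958 (1 for Msln, 1 for Fetub, 3 for Pxylp1 and 4 for Dpp4).

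The data were 10 Affymetrix expression arrays of thymic cells from C57BL/6-background mice aged 3 weeks, 5 labelled wild type (WT 1 to WT 5) and 5 labelled Fezf2 KO (KO 6 to KO 10, by the numbers in their titles). Cells had been sorted as CD45 negative, EpCAM positive and CD80 high, a gate for mature mTECs, which show developing T cells the proteins of many peripheral organs. The labels do not give the driver or the extent of the deletion, nor whether each array came from its own mouse, so the spread between arrays may be partly technical. The signal of the targeted gene, Fezf2, averaged 5475.5 ± 350.0 on WT and 15.0 ± 2.77 on KO arrays (SD, n = 5 each), and Epcam was 7344 ± 232 and 7695 ± 261. WT 1 and KO 6 stood apart in 18S rRNA signal, 3445 and 3762 where the remaining 8 had 765 to 1774, and results were also computed without these arrays. In bulk RNA of sorted cells, fewer cells of a kind and less RNA per cell cannot be told apart.

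The members act at the cell surface or on the way to it. Mesothelin (Msln) is a glycoprotein held on the membrane by a glycosylphosphatidylinositol (GPI) anchor, typical of the mesothelium that lines body cavities, and binds the mucin Muc16. Fetuin-B (Fetub) is a secreted cystatin-superfamily protein made mainly by the liver, and it inhibits ovastacin, the egg protease encoded by Astl. Pxylp1 is a Golgi phosphatase that removes the phosphate from xylose in the linker on which glycosaminoglycan chains of proteoglycans are built, a phosphate added by the kinase Fam20b. Dipeptidyl peptidase 4 (Dpp4, CD26) is a membrane serine peptidase of brush borders and T cells that trims dipeptides from chemokines and gut hormones and binds adenosine deaminase.

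Mesothelin had the tightest values. The signals, in linear units as deposited, were 862, 833, 893, 767 and 842 on WT 1 to WT 5 and 4215, 4351, 4523, 4517 and 4402 on KO 6 to KO 10. All KO arrays lay far above all WT arrays, and the lowest KO signal was 4.72 times the highest WT signal. The means were 839 ± 46.7 and 4401 ± 128 (SD, n = 5 each), a ratio of 5.24 and a log2 difference of 2.37 (SE 0.06) on the log2(signal + 16) scale, where every log2 difference below is KO minus WT and understates the change of weak signals. The coefficient of variation, the SD as a share of the mean, was 5.56% in WT and 2.91% in KO cells.

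Fetub was 109, 104, 101, 98.1 and 78.6 on WT 1 to WT 5 and 623, 553, 533, 507 and 469 on KO 6 to KO 10. The groups were again far apart, and WT 1 and KO 6 held the highest value of their genotype. The means were 98.3 ± 11.8 and 537 ± 57.5, a ratio of 5.46 and a log2 difference of 2.27 (SE 0.09). Without WT 1 and KO 6 the log2 difference was 2.26, so it was as large without these arrays. Its single probe set carries a suffix that marks probes matching several transcripts of a gene.

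Pxylp1 was measured by 3 probe sets, of which 2 carried the difference. The brightest, 1456735_x_at, gave 96.2, 127, 161, 100.1 and 156 on WT 1 to WT 5 and 408, 605, 573, 679.5 and 809 on KO 6 to KO 10. KO 6 was the lowest KO array and WT 1 the lowest WT array, the reverse of Fetub, and the genotypes did not overlap. The means were 128 ± 30.3 and 615 ± 147 (ratio 4.80, log2 difference 2.12, SE 0.18), and the difference was 2.17 without WT 1 and KO 6. The second, 1429390_at, gave 115 ± 24.0 and 461 ± 80.4 (ratio 4.02, log2 difference 1.87, SE 0.14), with the same lowest arrays. The suffix of the brightest probe set marks probes that may also match other genes, and the second has no such suffix. The third, 1429391_at, lay between 8.64 and 10.8 on all arrays, below the 40th percentile of each array (21.5 to 22.1), with a log2 difference of 0.05.

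Dpp4 was measured by 4 probe sets that differed in size but not in direction. The brightest, 1416697_at, gave 95.4, 123, 134, 113 and 97.9 on WT 1 to WT 5 and 370.1, 446, 532, 424 and 480.0 on KO 6 to KO 10. No KO value reached down to a WT value, and KO 6 was the lowest KO array. The means were 113 ± 16.6 and 451 ± 60.6, a ratio of 4.00 and a log2 difference of 1.86 (SE 0.11), or 1.87 without WT 1 and KO 6. A second probe set, 1459973_x_at, had means of 22.4 ± 4.61 and 98.7 ± 17.1 (ratio 4.40), but only 3 of its 5 WT arrays exceeded the 40th percentile. The next, 1438279_at, had means of 29.4 ± 3.54 and 56.5 ± 9.02 (ratio 1.92, log2 difference 0.67), and the last, 1441342_at, lay between 9.99 and 18.3 and below the 40th percentile on every array (ratio 1.44). KO 6 was the lowest KO array in all 4 probe sets of Dpp4.

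In all 9 probe sets every KO array lay above every WT array, which was also so for 6.83% of the 34958 probe sets with a single symbol. Because the genes were chosen for this difference, the count is a description only. Of the 9 probe sets 7 passed the filter on low values, which asked for a signal above the 40th percentile on at least 5 arrays. The narrowest gaps were in the weakest probe sets of Dpp4 and Pxylp1, where the lowest KO signal was 1.02 times the highest WT signal.

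**Figure D1:**
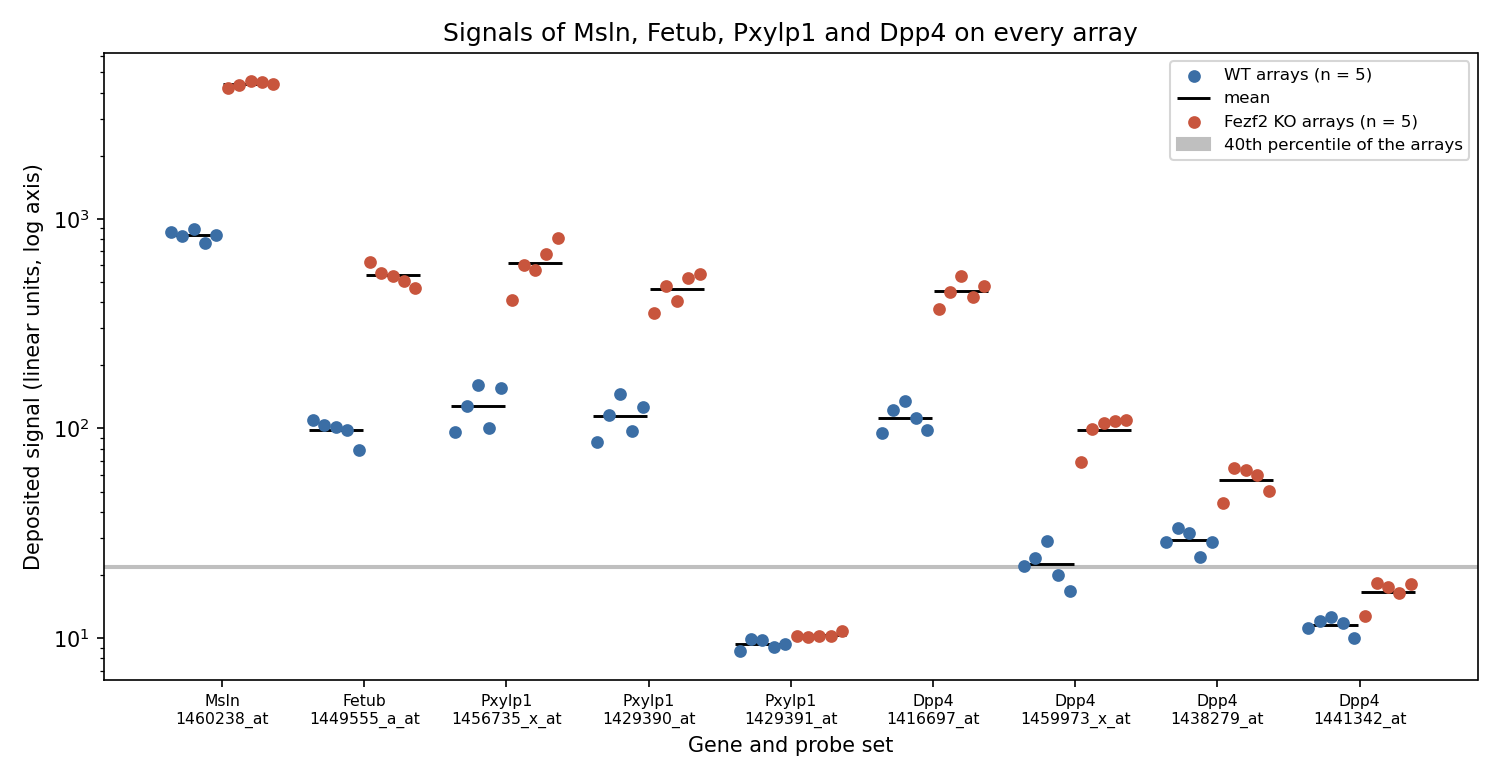
Deposited signal (log axis) of the 9 probe sets of Msln, Fetub, Pxylp1 and Dpp4 on each of 5 WT (blue) and 5 Fezf2 KO (red) arrays, with black bars at the means and a grey band at the 40th percentile of the arrays. Msln lies at 767 to 893 in WT and 4215 to 4523 in KO cells, and the weakest probe sets of Pxylp1 and Dpp4 lie under the band in both genotypes.

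Within a genotype the members did not follow each other closely. Deviations from the genotype mean, on the log2 scale, ran from -0.13 to 0.09 for Msln, from -0.27 to 0.22 for Fetub, from -0.54 to 0.42 for the brightest Pxylp1 probe set and from -0.26 to 0.24 for the brightest Dpp4 probe set. On KO 6 Fetub stood 0.22 above its KO mean, while Pxylp1 stood 0.54 and 0.35 below it (-0.54 and -0.35) in its brighter probe sets and Dpp4 deviated by -0.26. The 2 brighter Pxylp1 probe sets deviated alike, by -0.34 and -0.34 on WT 1, by 0.32 and 0.33 on WT 3 and by 0.42 and 0.25 on KO 10. The coefficient of variation of the brightest Pxylp1 probe set, 23.6% in WT and 23.9% in KO cells, was the highest among the representatives of the 4 genes.

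**Figure D2:**
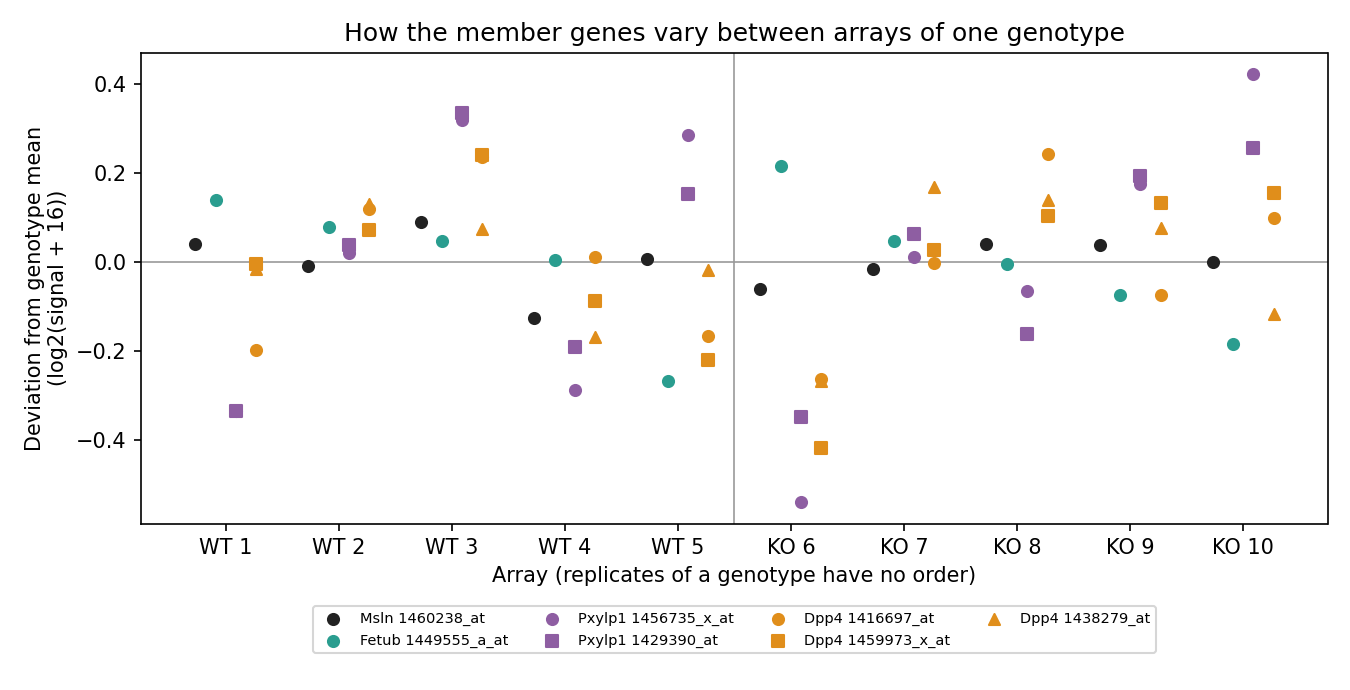
Deviation of each of the 7 probe sets that passed the filter from its genotype mean (log2(signal + 16)) on each array, coloured by gene, with marker shapes for probe sets of the same gene. Msln stays between -0.13 and 0.09, whereas on KO 6 Fetub lies at 0.22 and the brightest Pxylp1 probe set at -0.54.

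Promoter sequences were found for Fetub, Pxylp1 and Dpp4 in the RefSeq table of build GRCm38.p6, and the 250 bases before the annotated start are shown because they differ in composition, which the choice of the genes did not use. Capitals mark the motif letters that were found.
Fetub, first of its starts, chr16:22918132-22918381, forward strand: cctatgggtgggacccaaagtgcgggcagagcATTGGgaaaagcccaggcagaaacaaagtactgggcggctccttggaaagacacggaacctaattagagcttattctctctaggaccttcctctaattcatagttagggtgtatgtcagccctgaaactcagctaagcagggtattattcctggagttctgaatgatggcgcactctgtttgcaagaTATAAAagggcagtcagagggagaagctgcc
Pxylp1, chr9:96889475-96889724, reverse strand: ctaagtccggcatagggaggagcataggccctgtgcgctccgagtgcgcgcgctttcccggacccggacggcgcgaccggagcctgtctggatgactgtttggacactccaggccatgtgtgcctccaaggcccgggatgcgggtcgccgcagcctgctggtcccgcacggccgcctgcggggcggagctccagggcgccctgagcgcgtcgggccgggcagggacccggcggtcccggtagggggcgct
Dpp4, chr2:62412232-62412481, reverse strand: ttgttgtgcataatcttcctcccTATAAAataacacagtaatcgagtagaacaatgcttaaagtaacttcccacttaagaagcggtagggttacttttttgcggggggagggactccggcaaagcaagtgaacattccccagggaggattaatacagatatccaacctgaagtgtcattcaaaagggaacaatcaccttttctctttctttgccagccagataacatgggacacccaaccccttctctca
The Pxylp1 sequence was rich in G and C (73.6%, with 30 CG dinucleotides), and 4.95% of 32536 mouse promoter sequences of this length had a higher share. The Fetub and Dpp4 sequences shown had 49.2% and 43.6% G and C and 4 CG dinucleotides each, against a median of 52.4% over all promoters. TATAAA, the letters of the TATA box at which many tissue-restricted genes place their start, was searched on both strands and stood in 12.3% of all promoters. In Fetub it began 31 bases before the start on the forward strand, a place between 20 and 40 bases that held these letters in 1.99% of promoters. In Dpp4 it began 227 bases before the start, and Pxylp1 had none. CCAAT (33.8% of promoters) occurred in Fetub but in neither of the others, on the reverse strand. The letters searched for AP-1 (TGANTCA, 6.73% of promoters), grainyhead (AACCNGTT, 1.79%) and STAT factors (TTCNNNGAA, 7.04%) were absent from these windows and from the window before the other Fetub start. That other Fetub window, which is not shown, had 56% G and C, 7 CG dinucleotides and neither TATAAA nor CCAAT. A share of G and C below the median and both motifs therefore hold for the first Fetub start only.

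The chromosomal neighbours were then examined, since position played no part in choosing the genes. Among the 5 protein-coding genes on each side of each member, 30 of 40 could be tested, and 8 were higher, 3 lower and 19 not past an adjusted p of 0.05 (limma, Benjamini-Hochberg over 14087 genes). That is 36.7% past the threshold, beside 29.2% of all genes tested (13.0% higher and 16.2% lower). The largest change among the 30 was -0.94, for Spsb4.

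Around Msln on chromosome 17, 3 of 7 tested neighbours were higher and none was lower. Metrn, which encodes the secreted neurotrophic protein meteorin, rose from 144 ± 10.2 to 242 ± 31.2 (log2 change 0.69, SE 0.09, adjusted p = 1.1e-04). Haghl rose from 626 ± 114 to 864 ± 66.8 (0.47, adjusted p = 0.0105), while the rise of Rpusd1 (0.25, adjusted p = 0.0334) failed the threshold when any of 6 of the 10 arrays was omitted (adjusted p up to 0.0821 over all alternatives), as it did without WT 1 and KO 6 together (adjusted p = 0.0810). The nearest tested neighbour, Ciao3, had a change of 0.08 (adjusted p = 0.33).

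Fetub lies on chromosome 16 in a row of cystatin-superfamily genes with Ahsg on one side and Hrg, Kng2 and Kng1 on the other. Ahsg, the gene of fetuin-A, was 19.5, 24.5, 22.2, 25.1 and 20.3 on the WT arrays and 28.1, 32.5, 30.1, 34.7 and 29.1 on the KO arrays. The genotypes did not overlap, but 3 of the 5 WT arrays and all 5 KO arrays exceeded the 40th percentile, so Ahsg passed the filter through the group where it was higher. Ahsg differed by 0.29 (SE 0.06, adjusted p = 0.0038, and 0.0033 with no filter). Kng1, encoding a kininogen, had a change of 0.01 (adjusted p = 0.93), and Hrg was below the 40th percentile on every array. Of 7 tested neighbours of Fetub only Ahsg passed the threshold.

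Pxylp1 on chromosome 9 had 3 higher and 1 lower among 8 tested neighbours. Its nearest neighbour on one side, Spsb4, which encodes an adaptor of a ubiquitin ligase, went the opposite way. Spsb4 was 90.3, 96.8, 71.7, 56.0 and 43.6 on the WT arrays and 20.3, 24.4, 29.6, 33.9 and 36.8 on the KO arrays. It fell by 0.94 on the log2 scale (SE 0.17, adjusted p = 0.0013) with no overlap. Rasa2 and Slc25a36 rose by 0.28 and 0.29 (adjusted p = 0.0053 and 0.0051), and the call of Slc25a36 rested on its probe set with a suffix. Atp1b3 rose by 0.16 (adjusted p = 0.0413), which missed the threshold when any of 7 of the 10 arrays was omitted (adjusted p up to 0.100 over all alternatives).

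Dpp4 on chromosome 2 had a neighbour on either side that fell. Gcg, the glucagon and GLP-1 precursor, whose product Dpp4 cleaves, was 229, 205, 196, 189 and 247 in WT and 90.8, 146, 138, 126 and 124 in KO cells. It fell by 0.71 (SE 0.11, adjusted p = 5.8e-04), with all KO values below all WT values. Slc4a10, a bicarbonate transporter gene, fell by 0.64 (adjusted p = 0.0070). Fap, next in line after Gcg, encodes fibroblast activation protein, the closest relative of Dpp4. Its signals were 343, 320, 219, 230 and 206 in WT and 332, 411, 436, 358 and 333 in KO cells. It rose by 0.50 (SE 0.14, adjusted p = 0.0175), with overlap, since WT 1 exceeded KO 6 and KO 10. Without WT 1 and KO 6 its change was 0.64.

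**Figure D3:**
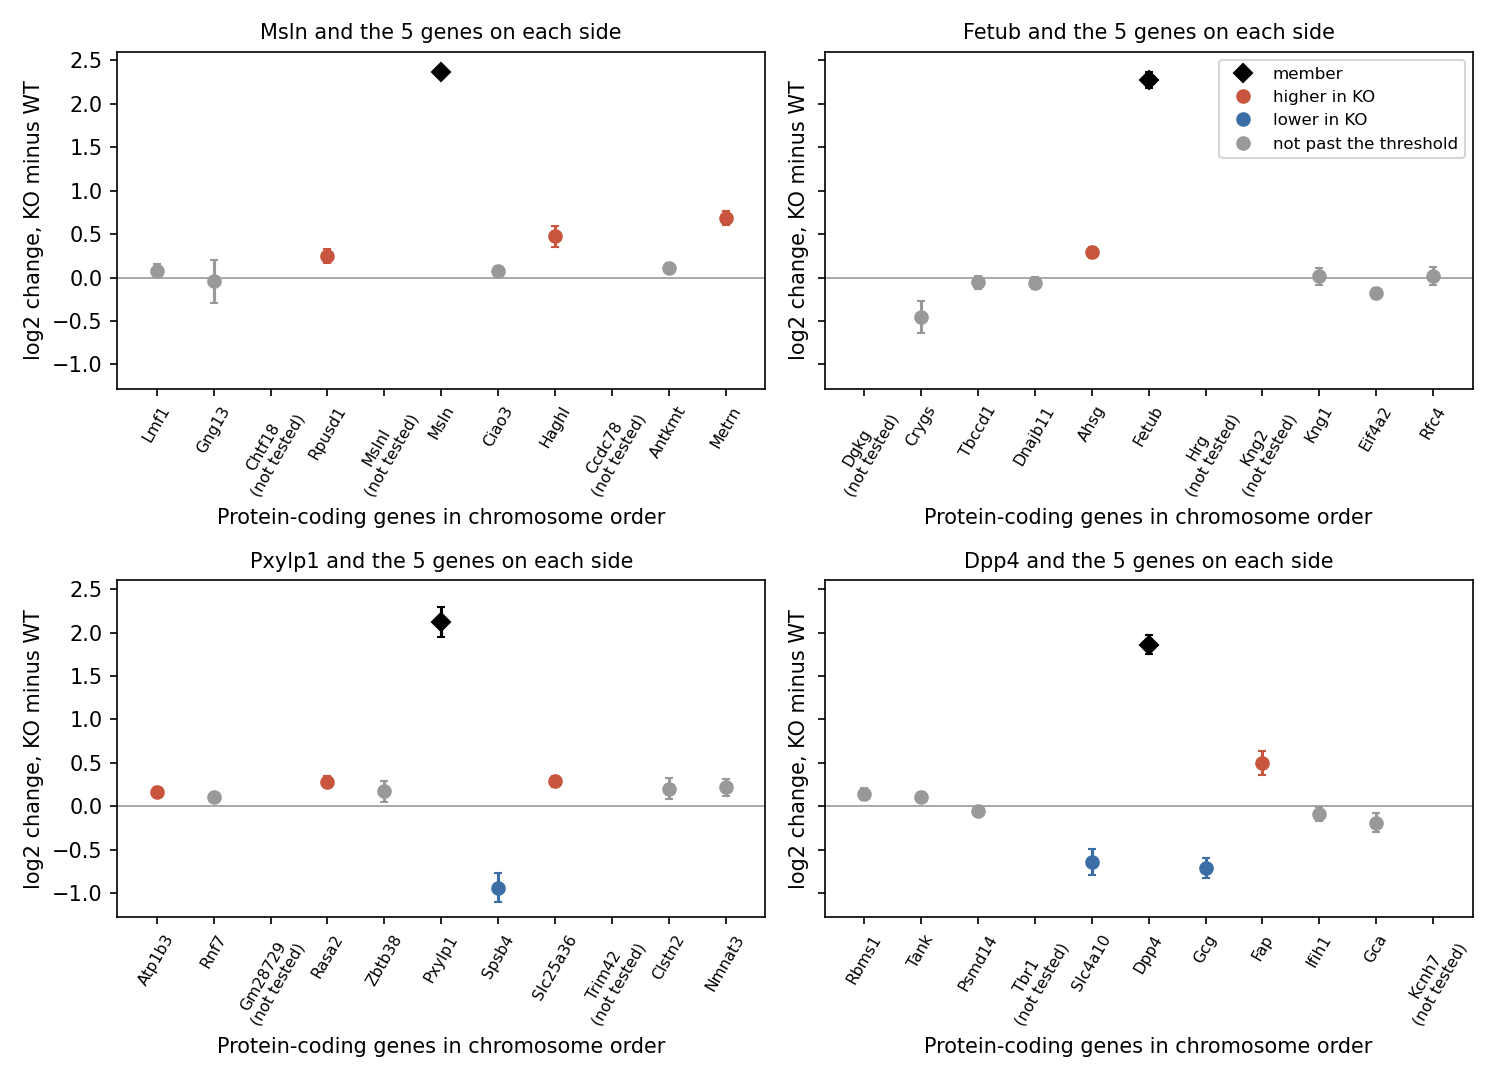
log2 change, KO minus WT, of each member (black diamond) and of the 5 protein-coding genes on each side in RefSeq order, with standard errors. Red points were higher, blue points lower and grey points not past an adjusted p of 0.05. Fap is higher (0.50) and Gcg and Slc4a10 lower (-0.71 and -0.64) beside Dpp4, and Spsb4 is lower (-0.94) beside Pxylp1.

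Genes related to the members in function were taken from 9 lists. Of 143 such genes tested, other than the members, 23 were higher and 30 lower (37.1%), beside 29.2% of all genes. Their median log2 change was 0.05, beside -0.03 over all genes. Of all genes tested, 13.0% were higher and 16.2% lower. The counts differed widely between the lists, as the plot of changes by list shows.

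Of 7 tested genes in the list of mesothelin relatives and partners, Cd44 was higher, Otoa, Otog and Strc were lower and 3 were not past the threshold. Strc and Otoa encode stereocilin and otoancorin, inner-ear proteins related in sequence to mesothelin. Otog, listed with them, encodes otogelin, a protein of inner-ear membranes, and is not counted here as a sequence relative. The log2 changes were -0.30 for Strc (adjusted p = 0.0158), -0.25 for Otoa and -0.43 for Otog, all at low signals between 16.7 and 133. Those of Otoa and Otog each missed the threshold when any of 6 of the 10 arrays was omitted (adjusted p up to 0.122 and 0.0748 over all alternatives). Without WT 1 and KO 6, Otoa missed it as well (adjusted p = 0.0797). Strc was above the 40th percentile on all 5 WT arrays and 1 KO array, so it passed the filter through the group where it was higher. The median of the list was 0.13. Beside its counts, 13.0% of all genes were higher and 16.2% lower. Muc16, the mucin that mesothelin binds, was 51.2 ± 12.3 and 60.7 ± 6.36 (log2 change 0.20, adjusted p = 0.20). Cd44, the hyaluronan receptor, rose from 1085 ± 193 to 1924 ± 325 (0.82, adjusted p = 7.6e-04).

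The enzymes that build and attach GPI anchors showed small changes. Of 24 tested, 3 were higher and none lower, beside 13.0% and 16.2% of all genes. At an unadjusted p under 0.05 in limma 7 were higher and 0 lower, and the median was 0.05. Pgap2, which remodels the lipid of the anchor, rose by 0.33 (adjusted p = 0.0050). Pigu and Pigk, subunits of the transamidase that attaches the anchor, rose by 0.31 and 0.28 (adjusted p = 0.0036 and 0.0032), and the call of Pigk was lost when its probe sets were averaged.

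Among relatives of Fetub in the cystatin superfamily, 3 of 13 tested were higher and none lower (1 lower at an unadjusted p under 0.05). Beside these counts, 13.0% of all genes were higher and 16.2% lower. The median of the list was 0.09. Cst6, encoding cystatin M/E, an inhibitor of lysosomal proteases in the epidermis, was 2504, 2036, 2060, 1752 and 1642 in WT and 6038, 4081, 4905, 3960 and 3371 in KO cells. As with Fetub, WT 1 and KO 6 were the highest of their genotype. It rose by 1.14 (SE 0.15, adjusted p = 1.5e-04), and by 1.11 without WT 1 and KO 6. Csta1, a stefin of the cystatin A group, rose from 134 ± 34.5 to 296 ± 79.0 (1.05, adjusted p = 0.0010), again highest on WT 1 and KO 6, and by 1.02 without them. Stefin genes have near-identical copies, whose signals may not be separable. The third was Ahsg, which passed the filter through its KO signals.

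Fetuin-B inhibits proteases of the astacin family. Of 4 astacin metalloproteases tested, Mep1a was lower, 3 were not past the threshold and none was higher (0 also at an unadjusted p under 0.05 in limma). Mep1a encodes the alpha subunit of meprin, a brush border enzyme, and fell from 610.0 ± 71.8 to 298 ± 16.6 (-0.99, SE 0.08, adjusted p = 4.3e-06). Astl, the gene of ovastacin, was 111 ± 14.0 and 120 ± 14.0 (0.10, adjusted p = 0.48). Mep1b and Bmp1, the remaining astacins, differed by 0.02 and -0.25 (adjusted p = 0.89 and 0.29).

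For the enzymes of the pathway in which Pxylp1 works, the counts did not exceed the shares over all genes (13.0% higher and 16.2% lower). Of 25 tested genes of glycosaminoglycan linker and chain synthesis, 3 were higher and 3 lower, with a median of 0.08. Of the linker genes that could be tested none passed: Fam20b, the kinase opposed by Pxylp1, was 538 ± 38.1 and 517 ± 44.1 (-0.06, adjusted p = 0.60), and B4galt7, B3galt6 and B3gat3, which add the sugars of the linker, had changes of 0.12, -0.02 and 0.10 (adjusted p = 0.16, 0.84 and 0.33). Xylt2, which adds the first sugar, was below the 40th percentile on every array. Ugdh, which makes the UDP-glucuronate used for the chains, rose from 513 ± 28.6 to 717 ± 24.1 (0.47, SE 0.06, adjusted p = 7.9e-05). Ext1, a polymerase of heparan sulfate, rose by 0.42 (adjusted p = 0.0050) and Chpf2 by 0.32 (adjusted p = 0.028). Hs3st1, a heparan sulfate sulfotransferase, fell by 0.54 (adjusted p = 0.0029). Csgalnact1, which starts chondroitin chains, fell by 0.47 (adjusted p = 0.0076), and Chst12 by 0.30 (adjusted p = 0.0369). Chpf2 and Chst12 missed the threshold when any of 4 and of 8 arrays was omitted (adjusted p up to 0.0740 and 0.0887 over all alternatives), and both missed it without WT 1 and KO 6 (adjusted p = 0.0740 and 0.0838). Chst12 was above the 40th percentile on 4 WT arrays and 1 KO array.

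Among 24 tested core proteins that carry such chains, 7 were higher and 5 lower, beside 13.0% and 16.2% of all genes. Their median was 0.14. Lum, encoding lumican, rose from 81.8 ± 4.88 to 162 ± 16.3 (0.86, SE 0.08, adjusted p = 8.1e-06), and Cd44 stands in this list too. Spock1, a testican, rose by 0.62 (adjusted p = 5.1e-04). Sdc2, the membrane proteoglycan syndecan-2, fell from 157 ± 17.4 to 89.6 ± 9.14 (-0.71, SE 0.09, adjusted p = 1.1e-04). The basement membrane proteins Agrn and Col18a1 fell by 0.44 and 0.42 (adjusted p = 0.0036 and 0.0096).

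Of 15 relatives of Dpp4 among the prolyl peptidases 2 were higher and 4 lower, beside 13.0% and 16.2% of all genes. The median was 0.04. Besides Fap, Prcp, a lysosomal carboxypeptidase, rose by 0.40 (adjusted p = 0.0011). Apeh, Dpp7 and Pepd, enzymes that act inside the cell, fell by 0.38, 0.34 and 0.26 (adjusted p = 0.0033, 0.0011 and 0.0126). Dpp8 and Dpp9, the cytosolic relatives, differed by 0.30 and 0.04 and missed the threshold (adjusted p = 0.11 and 0.73).

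Of 12 other peptidases of the cell surface tested, 4 were higher and 1 lower, beside 13.0% and 16.2% of all genes. Their median was 0.01. Anpep, aminopeptidase N (CD13), which like Dpp4 sits in brush borders, was 20.4, 29.4, 36.1, 32.5 and 28.3 on the WT arrays and 93.4, 90.3, 109, 104 and 131 on the KO arrays. The lowest KO value was far above the highest WT value. It rose 3.60-fold by the ratio of means (log2 change 1.42, SE 0.11, adjusted p = 2.9e-06). With an offset of 64 in place of 16 the change was 0.86. Enpep, aminopeptidase A (the Ly51 antigen of cortical epithelium), rose from 506 ± 55.0 to 907 ± 75.4 (0.82, adjusted p = 1.7e-05), and Ece1, the endothelin-converting enzyme, from 248 ± 22.4 to 411 ± 101 (0.67, adjusted p = 0.0023), with its highest value, 583, on KO 6. Mmel1 fell by 0.20 (adjusted p = 0.0145) at signals between 19.5 and 30.0.

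The substrates and binding partners of Dpp4 mostly fell, and a link of this fall to Dpp4 was not tested. Of 20 tested, 13 were lower, 1 higher and 6 not past the threshold, with a median of -0.46 beside -0.03 over all genes and 16.2% of all genes lower. Over all alternative settings between 11 and 13 were lower, and 12 were lower without WT 1 and KO 6. Some marker lists described below fell alike. Lower were 12 of 19 hepatocyte genes (3 higher, median -0.64) and 8 of 13 enterocyte genes (1 higher, median -0.69). So were 6 of 9 genes of dendritic cells and macrophages (1 higher, median -0.43), whereas of 15 cornified cell genes 9 were higher and 2 lower. Cxcl2, a chemokine for neutrophils, was 3405, 2246, 1884, 2448 and 3015 in WT and 941, 897, 1192, 1122 and 835 in KO cells, and fell by 1.35 (SE 0.15, adjusted p = 4.4e-05). Gip, the glucose-dependent insulinotropic peptide, a classical Dpp4 substrate, fell from 1235 ± 142 to 677 ± 86.5 (-0.86, SE 0.10, adjusted p = 5.2e-05), and Pyy, peptide YY of the gut, from 1729 ± 127 to 1208 ± 117 (-0.51, adjusted p = 4.1e-04). The chemokine gene Cxcl11 had the largest fall, -1.45 (adjusted p = 0.0016), but its WT values ranged from 1177 to 3473. Ada, the adenosine deaminase that Dpp4 binds, fell by 0.43 (adjusted p = 0.0228), a call lost without WT 2 or KO 10 (adjusted p up to 0.0548), and Cxcl10 (-0.40) missed the threshold when any of 6 of the 10 arrays was omitted (adjusted p up to 0.101 over all alternatives) and without WT 1 and KO 6 (adjusted p = 0.0986). Igf2r, the mannose-6-phosphate receptor reported to bind Dpp4, rose by 0.46 (adjusted p = 9.6e-04).

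**Figure D4:**
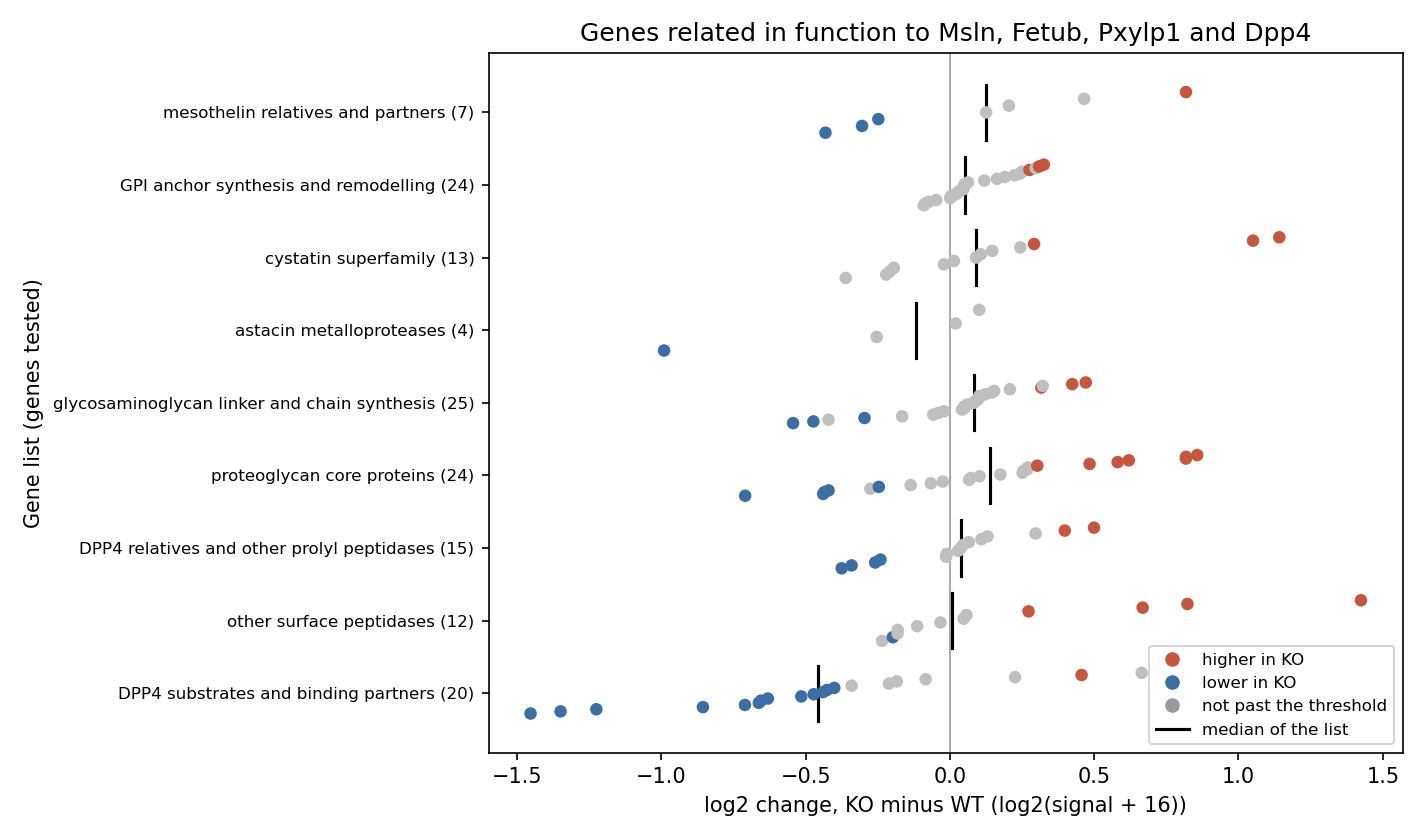
log2 change, KO minus WT, of each tested gene in 9 lists of genes related in function to Msln, Fetub, Pxylp1 or Dpp4 (numbers tested in brackets), red where higher, blue where lower and grey where not past an adjusted p of 0.05, with a black bar at the median of each list. The substrates and binding partners of Dpp4 have a median of -0.46, and the surface peptidase farthest to the right is Anpep at 1.42.

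Markers of cells that normally express the members were read from fixed lists. Beside their counts, 13.0% of all genes were higher and 16.2% lower, with a median of -0.03. Of 12 tested mesothelial genes, Upk1b and Nkain4 were higher and Calb2, Aldh1a2 and Rspo1 lower, with a median of 0.002. Wt1, the defining transcription factor of mesothelium, was between 9.33 and 13.0 and below the 40th percentile on every array. Upk3b and Lrrn4, further mesothelial markers, had changes of -0.009 and 0.10 (adjusted p = 0.97 and 0.64). Upk1b, a uroplakin, rose from 98.8 ± 16.9 to 316 ± 129, with 541 on KO 6 and 222 to 299 on the other KO arrays. The summed signal of the list was 2348 to 2597 in WT and 2218 to 3803 in KO cells, so that the groups overlapped.

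For Fetub, whose main source is the liver, 12 of 19 hepatocyte genes were lower and 3, Hp, Cps1 and Ahsg, higher, with a median of -0.64 and summed signals of 6253 to 6866 in WT and 3618 to 4799 in KO cells. For Dpp4, 8 of 13 enterocyte genes were lower and only Anpep was higher (median -0.69, summed signals 5565 to 7842 and 3262 to 3744). None of 11 genes of thymocytes and T cells passed, nor did any at an unadjusted p under 0.05 in limma, and their summed signals overlapped (1025 to 1280 in WT, 713 to 1451 in KO cells). Of 11 fibroblast genes Lum, Dcn, Cd34 and Postn were higher and none lower (1 lower at an unadjusted p under 0.05), with summed signals of 3197 to 3966 and 3859 to 4999, and the part of these cells in the values of Dpp4, Fap and Lum was not tested. The call of Dcn was lost without WT 2, WT 3 or WT 4 (adjusted p up to 0.0636). Pdgfra and Col1a1, defining fibroblast genes, differed by 0.12 and -0.13, short of the threshold (adjusted p = 0.54 and 0.46). Of 8 cortical epithelium genes, Ccl25, Ctsl and Enpep were higher and Ly75 lower, while Psmb11, Prss16, Cxcl12 and Dll4 were not past the threshold. The median was 0.41. Summed signals, in which bright genes weigh most, were 10885 to 14709 in WT and 19022 to 22601 in KO cells. No cortical gene was called lower without WT 4 or WT 5, and the part of cortical cells in the values of Enpep was not tested.

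Of 7 endothelium genes, Pecam1, Cdh5, Kdr, Emcn and Vwf were higher and none lower (0 also at an unadjusted p under 0.05 in limma). The median was 0.62, with summed signals of 649 to 931 in WT and 1003 to 1227 in KO cells. Pecam1 and Emcn exceeded the 40th percentile on 1 WT array and all 5 KO arrays. Endothelium also expresses Ece1, Anpep and Dpp4, and its part in their values was not tested. Of 9 genes of dendritic cells and macrophages 6 were lower and Itgam was higher (median -0.43, summed signals 5724 to 6094 and 3647 to 4625). The shift was in the direction of Cxcl2 and Ccl3, which such cells express, and the part of these cells in those values was not tested. Of 15 cornified cell genes 9 were higher and 2 lower (median 0.62, summed signals 12790 to 19644 and 21482 to 28153). The part of such cells in the values of Cst6, Csta1 and Scel was not tested. Microfold cell genes included 3 of 10 that were higher and none that was lower (1 at an unadjusted p under 0.05 in limma), with a median of 0.10. Of 4 B cell genes 1 was higher and 1 lower, with a median of -0.36. Counts in lists as short as these 2 say little beside the shares over all genes. Of 12 medullary genes 5 were higher and 2, Aire and Krt14, lower, with a median of 0.07. No medullary gene was called lower without WT 3, WT 4 or WT 5, and 1 was without KO 6, KO 7, KO 8 or KO 9. Without WT 1 and KO 6 the counts became 5 higher cortical genes, 7 higher endothelium genes and 3 lower B cell genes.

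The genes whose signals ran closest to the members over the 10 arrays were found by the mean gap between log2 signals, after each gene was centred on its own mean. Genes found this way share the rise by construction, so the gaps are descriptions. Closest to Msln were Btla, an inhibitory receptor of lymphocytes (mean gap 0.10), Fetub (0.14), Mpeg1, a pore-forming protein of macrophages (0.15), and the cytokine gene Il18 (0.17). Closest to Fetub were Msln (0.14), Btla (0.17), the cornified envelope gene Scel (0.19) and Il18 (0.19). The nearest to Dpp4 were the ephrin receptor gene Epha3 (0.12), Hebp2, of a heme-binding protein (0.15), Il18 (0.18) and the formin gene Fmn1 (0.18). Pxylp1 had no gene as close, with Dkkl1 (0.21), Msln (0.24), Dpp4 (0.26) and Epha3 (0.28) as its nearest. Epha3 was 122, 133, 193, 132 and 111 in WT and 389, 486, 503, 543 and 503 in KO cells, so that, as for the brightest Dpp4 probe set, WT 3 was the highest WT array and KO 6 the lowest KO array.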

How the data were processed

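Arrays of 10 samples (5 WT, 5 Fezf2 KO) were used, grouped by their titles. The authors deposited 1 signal intensity per probe set on a linear scale, and the submitters' processing notes name MAS5 alone, without a version. Its scaling and background settings were not given in the sources used here. The array medians lay between 36.5 and 38.0, and means trimmed by 2% at each end between 170.3 and 174.2, not at 1 common value as scaling to a target would give. The lowest intensity was 5.49 and the 1st percentile of an array 7.12 to 7.38, so low signals lie above a floor and their ratios are compressed. Which further steps were applied is unknown, and ratios hold on the deposited scale. Of 45101 probe sets, 34958 had 1 gene symbol in the platform annotation, 932 several and 9211 none, and 34754 were matched by Entrez identifier to RefSeq (GRCm38.p6), which gave names and gene order. The files name no genome build.

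After adding 16 and taking log2, the intensities were fitted in limma 3.58.1 (R 4.3.3; lmFit, then eBayes with trend and robust estimation) without further normalization. Probe sets above the 40th percentile of their array on at least 5 arrays were kept, and the one with the highest mean represented a gene, which gave 14087 genes tested. The standard errors of the members come from the same fit over all 34958 probe sets. P-values were adjusted by Benjamini-Hochberg, with a threshold of 0.05. On simulated arrays of the 14087 genes, 74% of 100 genes changed by 0.5 and 97% of 100 genes changed by 1 (log2) were recovered, with 15 false calls. The simulated noise was independent between genes and only these genes were changed, whereas 4119 genes were called in the data. The simulated rates therefore need not hold for the real calls. Precision is limited by the number of arrays.

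The members and gene lists were chosen with earlier results of these data known. Named were the members, up to 3 genes per direction with the smallest adjusted p of each functional list, neighbours past the threshold and the 4 most similar genes per member. Genes outside that rule, such as Cxcl11, Ada, Muc16, Astl, the linker enzymes and the neighbours not past the threshold, were singled out once their values had been seen. Tried as alternatives were the 60th percentile or no filter, offsets of 1 and 64, centring on the median, quantile normalization, averaged probe sets, probe sets without suffixes, eBayes without trend, array weights, WT 1 and KO 6 left out or as a block, Xist signal above 1000 as a term, and each array left out. Xist was 21.1 on WT 2, 26.9 on KO 6 and 30.0 on KO 8, and 5304 to 6100 on the other arrays. With the Xist term the log2 differences were 2.37 for Msln, 2.25 for Fetub, 2.18 for Pxylp1 and 1.85 for Dpp4.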

Additional observations from a re-analysis of the deposited data

Results flagged for a closer look

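In 122 groups of 5 arrays, for the 61 probe sets of the members and the named genes, 10 had an array far from the other 4 by Dixon's test, which by chance picks about 1 in 20 groups. Among the members, the Dpp4 probe set 1459973_x_at was 69.0 on KO 6 against 99.7 to 110.3 on the other KO arrays, and the Pxylp1 probe set 1429391_at was 10.8 on KO 10, below the 40th percentile. Among related genes and neighbours, WT 5 stood at 602 for Enpep, WT 4 at 1481 for Gip, KO 8 at 877 for Igf2r, KO 9 at 296 for Metrn and KO 10 at 246 for Pigk. Among genes with similar patterns, WT 1 was the highest WT array for Btla (97.5) and Scel (285), and WT 3 for Epha3 (193).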

How the results depend on the processing

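The members kept their direction under every alternative run. Leaving out each array in turn, log2 differences ranged from 2.34 to 2.39 for Msln, 2.21 to 2.32 for Fetub, 2.02 to 2.26 for Pxylp1 and 1.80 to 1.92 for Dpp4. Differences moved by more than the spread between arrays for Fetub with an offset of 1 (2.44) or 64 (1.89) and for Dpp4 with an offset of 64 (1.54) or the mean of its probe sets (1.37). Pxylp1, whose arrays spread more widely, did not pass that mark. It was still below its range without 1 array with an offset of 64 (1.81) and with probe sets without suffixes (1.87). Fetub has no value from probe sets without suffixes. The genes past the threshold numbered 4119 (3427 to 4207 without 1 array), those of the 9 functional lists 53 (47 to 54) and the chromosome neighbours 11 (9 to 11). Other alternatives went beyond these ranges. Array weights raised the genes to 5563 and the list genes to 68. Blocking on WT 1 and KO 6 gave 5098 genes, 62 list genes and 13 neighbours. List genes fell to 43 with the 60th percentile filter and to 44 with probe sets without suffixes. The shares of all genes quoted beside the lists are those of the main fit. The neighbours numbered 18 with array weights and 6 with probe sets without suffixes, where the cause was not tested. Of the 61 neighbours and list genes past the threshold, 46 stayed past it under all 23 alternatives that could test them, 15 lost it at least once and 0 reversed. No paired analysis was made because the labels do not say whether WT and KO arrays were paired. Signals near the 40th percentile, such as those of Ahsg, Strc and the weaker Dpp4 probe sets, limit what their changes can show.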
